A study of Mus musculus with 6 samples.

Results

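The Trim and Gvin cluster of mouse chromosome 7 is a set of 10 listed genes in a pair of blocks: Trim34a, Trim12a, Trim12c, Trim30a, Trim30b, Trim30c and Trim30d in the first, and Gvin1, Gm4759 and Gm1966 in the second. Members were the genes for which the array annotation gives a probe set that names that gene alone, which held for 7 of the 10, with 1 probe set each, among 19937 genes named in this way on the whole array. Trim30b and Gvin1 appeared on probe sets shared with other genes only, and Trim30c on none, so these 3 have no level of their own here. All 7 probe sets passed the filter on low values, those of Trim12a and Trim30d only through their WT levels. The genes were chosen because of how they differ between the groups below, so those differences are given as a description without a test.

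CD4+ T cells, which include helper and regulatory T lymphocytes, were profiled on Affymetrix arrays from C57BL/6 mice aged 6 weeks. CBS-KO mice are deficient in CBS (cystathionine beta-synthase), which condenses homocysteine with serine and is a source of hydrogen sulfide, and WT mice carry no labelled change. Each group held 3 arrays, labelled as biological replicates, and no value can be more precise than 3 arrays allow. How the CBS allele was made, whether the WT mice were littermates and how the cells were purified were not stated in the labels.

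TRIM proteins carry a RING domain, a B-box and a coiled coil, and many of them attach ubiquitin to other proteins. The Trim genes of this cluster are the mouse relatives of the primate TRIM5, TRIM6, TRIM22 and TRIM34 locus, whose best known product, TRIM5, blocks retroviral capsids, and in the mouse the locus has expanded by duplication. Gvin genes encode very large GTPases induced by interferon. Interferon acts through STAT and IRF factors, and a complex that holds IRF9 binds the interferon-stimulated response element in the promoters of its target genes.

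Promoters are shown first because paralogs with nearly the same promoter letters had very different differences between the groups on their own probe sets. The sequences are those of RefSeq on GRCm38.p6, the C57BL/6J reference, and not of the mice studied, and 8 of the 10 genes had an entry of 300 bases, 250 before to 50 after the start. The core of the response element, GAAA followed after any 2 bases by GAAA, was searched on both strands. It was found for 6 of these 8 genes, all 6 of them with a probe set of their own, against 3.99% of the 27025 genes with a promoter in the table. Among the tested interferon-stimulated effector genes listed further on, 10 of 19 with an entry held it. The core of a STAT site, TTCNNNGAA, which reads the same on both strands and was counted separately, was found for Trim30c alone among the 8, against 9.55% of all genes. A match is a run of letters and not a shown binding site. In each window below the capitals mark the match, which in every case reads as the element on the opposite strand, and positions count from the gene's start, +1.

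The Trim12 pair is shown to compare promoters of paralogs. Their 300-base promoters were 95% identical over 260 aligned bases, and both held the same 10 letters.

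Trim12a, chr7:104315446-104315575, minus strand, positions -80 to +50: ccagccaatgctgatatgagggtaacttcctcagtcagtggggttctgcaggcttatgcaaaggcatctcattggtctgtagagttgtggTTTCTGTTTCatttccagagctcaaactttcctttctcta

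Trim12c, chr7:104353300-104353429, minus strand, positions -80 to +50: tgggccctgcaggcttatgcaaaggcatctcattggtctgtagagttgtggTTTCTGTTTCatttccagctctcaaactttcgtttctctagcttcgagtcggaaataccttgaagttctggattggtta

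The Trim30 pair was 93.6% identical over 295 aligned bases, again with the same 10 letters in the match. Trim30a has a further annotated start, whose promoter held the match at positions 3 to 12.

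Trim30a, chr7:104465144-104465273, minus strand, positions -80 to +50: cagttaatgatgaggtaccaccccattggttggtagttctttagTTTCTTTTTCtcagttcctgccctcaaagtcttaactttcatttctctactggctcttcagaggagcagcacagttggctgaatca

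Trim30d, chr7:104507800-104507929, minus strand, positions -80 to +50: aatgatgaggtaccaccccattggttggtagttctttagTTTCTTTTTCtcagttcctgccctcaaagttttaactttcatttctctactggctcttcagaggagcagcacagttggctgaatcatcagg

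Trim34a and Gm1966 are shown as the remaining measured genes with an entry. The match of Gm1966 lies farther from the start and inside a run rich in T.

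Trim34a, chr7:104244377-104244506, plus strand, positions -80 to +50: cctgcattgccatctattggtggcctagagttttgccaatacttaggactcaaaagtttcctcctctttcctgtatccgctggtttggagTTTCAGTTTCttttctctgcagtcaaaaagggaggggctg

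Gm1966, chr7:106644716-106644845, minus strand, positions -200 to -71: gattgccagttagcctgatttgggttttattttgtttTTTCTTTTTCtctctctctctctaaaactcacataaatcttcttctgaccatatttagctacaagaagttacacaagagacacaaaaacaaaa

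Across all 7 genes, every CBS-KO array lay below every WT array, which is a description, since the genes were picked on this contrast. Among the 20856 probe sets tested, the share was 21.7%. Levels are given as the authors' deposited intensities, and differences as log2(intensity + 16), CBS-KO minus WT. In limma's model over all tested probe sets, 4.47% of them were called lower at an adjusted p of 0.05, 5.09% higher and 9.57% in either direction. Leaving out 1 array moved those 933 lower and 1062 higher calls to as few as 19 and 54, without WT 2, and to as many as 3031 and 3396, without CBS-KO 2. Of the 7 genes, 4 (Trim12a, Trim30d, Gm1966 and Gm4759) were among the lower calls, a count that is no test of them, since they were picked on this contrast, and from which nothing is read. The median log2 difference of the 7 genes was -1.98, beside -0.05 for all tested probe sets.

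**Figure D1:**
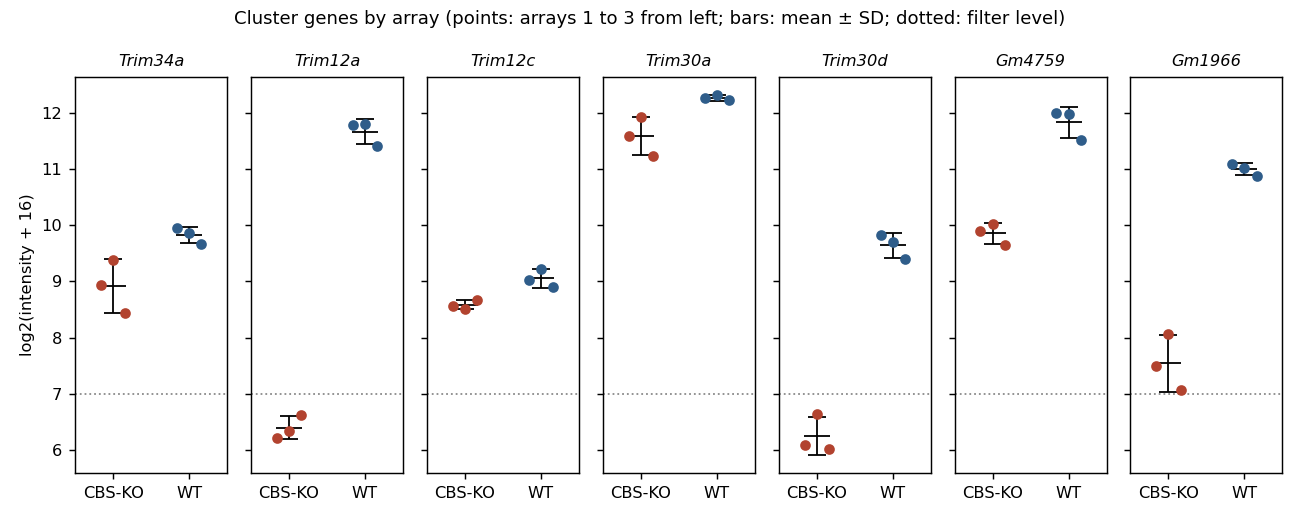
Level of the 7 measured cluster genes as log2(intensity + 16), with 1 point per array, CBS-KO left of WT, bars for mean ± SD (n = 3) and a dotted line at the filter level of 6.99. Trim12a and Trim30d lie below that line in all CBS-KO arrays and well above it in WT, while Trim30a and Trim12c differ by less than 1 log2 unit.

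Trim12a, a RING-type family member, had the largest difference of the cluster. Its intensity was 58.3, 65.3 and 82.3 in CBS-KO 1 to 3, against 3490, 3570 and 2701 in WT 1 to 3. On the log2 scale this was 6.39 ± 0.21 in CBS-KO and 11.66 ± 0.22 in WT cells (SD, n = 3 each), a difference of -5.27 (SE 0.17). The groups were separated by a gap of 4.79 log2 units, far wider than the range of 0.40 within either group. In WT cells the probe set stood on average at the 95.2th percentile of an array, and in CBS-KO cells at the 28.3th, under the filter level. No background level is known for these arrays, and the size of the difference depends on it.

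Trim12c, the paralog measured beside it, whose product promotes type I interferon and NF-kB signalling in mouse cells, differed less on its own probe set. Its intensity was 364, 348 and 392 in CBS-KO 1 to 3, against 506, 583 and 463 in WT 1 to 3. The log2 difference was -0.47 (SE 0.13), with 8.58 ± 0.08 in CBS-KO and 9.05 ± 0.16 in WT cells (SD, n = 3 each) and a gap of 0.23 between the groups. The log2 value of Trim12a relative to its WT mean, minus that of Trim12c, was -4.97, -4.77 and -4.66 in CBS-KO 1 to 3, and 0.14, -0.03 and -0.11 in WT 1 to 3. The contrast between these 2 probe sets was thus alike in all CBS-KO arrays and stands beside the 95% identity of the promoter letters shown above.

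A pair of probe sets annotated to Trim12c and other Trim genes, which cannot be assigned to any 1 of them, lay between those values. Probe set 10566333, annotated to Trim5, Trim12c and Trim12a, had intensities of 438, 370 and 381 in CBS-KO 1 to 3, against 2446, 2411 and 1769 in WT 1 to 3, a log2 difference of -2.42 (SE 0.16). Probe set 10601581, annotated to Trim5 and Trim12c but not to Trim12a, had 619, 669 and 520 in CBS-KO 1 to 3, against 1268, 1658 and 1427 in WT 1 to 3, a log2 difference of -1.24 (SE 0.15). Both kept the groups apart on every array. The probe set of Trim12c alone and the one it shares with Trim5 thus gave unlike differences, and the smaller one is not settled as the difference of Trim12c. How far the probe sets of such near copies detect each other's RNA cannot be read from these values.

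Trim30a, which in mouse macrophages restrains Toll-like receptor signalling, had a small difference between bright levels, at the 94.5th percentile of an array in CBS-KO and the 97.6th in WT cells. Its intensity was 3088, 3897 and 2409 in CBS-KO 1 to 3, against 4894, 5099 and 4798 in WT 1 to 3. The log2 difference was -0.68 (SE 0.17), with 11.59 ± 0.35 in CBS-KO and 12.27 ± 0.04 in WT cells (SD, n = 3 each). The CBS-KO arrays were spread over 0.69 log2 units and the WT arrays over 0.09, with CBS-KO 2 closest to WT and CBS-KO 3 farthest.

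Trim30d, whose product restricts tick-borne flaviviruses in mouse cells, lay below the filter level in all CBS-KO arrays. Its intensity was 52.3, 83.5 and 48.7 in CBS-KO 1 to 3, against 893, 818 and 661 in WT 1 to 3. The log2 difference was -3.40 (SE 0.20), with 6.25 ± 0.34 in CBS-KO and 9.65 ± 0.22 in WT cells (SD, n = 3 each). The CBS-KO mean stood at the 25.1th percentile of an array, under the filter level, and the WT mean at the 77.5th. The log2 value of Trim30d relative to its WT mean, minus that of Trim30a, was -2.88, -2.67 and -2.60 in CBS-KO 1 to 3, and 0.19, 0.01 and -0.20 in WT 1 to 3. As with the Trim12 genes, 1 probe set of the pair lay below the filter level in all CBS-KO arrays and the other above it.

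Trim34a, an interferon-induced gene whose human counterpart acts with TRIM5 against retroviruses, resembled Trim30a in its difference between the groups but not in level. Its intensity was 472, 656 and 330 in CBS-KO 1 to 3, against 971, 923 and 793 in WT 1 to 3. The log2 difference was -0.91 (SE 0.25), with 8.92 ± 0.48 in CBS-KO and 9.83 ± 0.15 in WT cells (SD, n = 3 each). The gap between the groups, 0.27, was smaller than the range of 0.96 within CBS-KO. The log2 value of Trim34a relative to its WT mean, minus that of Trim30a, was -0.22, -0.10 and -0.36 in CBS-KO 1 to 3, and 0.13, 0.00 and -0.13 in WT 1 to 3.

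In the Gvin block, Gm1966, annotated as protein coding, was lower by more than 3 log2 units. Its intensity was 165, 253 and 118 in CBS-KO 1 to 3, against 2161, 2069 and 1863 in WT 1 to 3, a log2 difference of -3.45 (SE 0.25). The CBS-KO mean of 7.55 ± 0.51 lay above the filter level, at the 51.1th percentile, and the WT mean of 11.00 ± 0.11 (SD, n = 3 each) at the 91.0th. Unlike Trim12a and Trim30d, Gm1966 lay above that level in all CBS-KO arrays, though only just in CBS-KO 3, at 7.06 against 6.99. The filter level is no limit of detection.

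Gm4759, annotated as a transcribed pseudogene, lay above the filter level in both groups. Its intensity was 939, 1020 and 789 in CBS-KO 1 to 3, against 4082, 4026 and 2917 in WT 1 to 3. The log2 difference was -1.98 (SE 0.17), with 9.86 ± 0.19 in CBS-KO and 11.83 ± 0.27 in WT cells (SD, n = 3 each), and the mean intensity was 4.01-fold lower in CBS-KO cells. The log2 value of Gm1966 relative to its WT mean, minus that of Gm4759, was -1.56, -1.11 and -1.75 in CBS-KO 1 to 3, and -0.08, -0.12 and 0.19 in WT 1 to 3. No array of either group crossed into the other for these genes.

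Probe sets shared among Gvin genes, some of them annotated to Gm1966 as well, differed less between the groups than the probe sets of Gm1966 and Gm4759 alone. Probe set 10566574, annotated to Gvin1 and Gm4070, had intensities of 1403, 1991 and 893 in CBS-KO 1 to 3, against 1559, 1673 and 1774 in WT 1 to 3. Its groups overlapped, with CBS-KO 2 the highest and CBS-KO 3 the lowest of the 6 arrays, and its log2 difference was -0.29 (95% confidence interval -0.94 to 0.36). Probe set 10566578, annotated to Gm1966, Gvin1, Gm4070, Gm8989 and Gm8979, had 1803, 2082 and 1372 in CBS-KO 1 to 3, against 2621, 3108 and 2573 in WT 1 to 3, a log2 difference of -0.67 (SE 0.17) without overlap. Another probe set annotated to the same 5 genes, 10566571, and 10566350, annotated to Trim30b and Gm38525, lay below the filter, at the 3.9th and 37.6th percentile in CBS-KO cells and the 6.6th and 41.6th in WT cells. The probe sets annotated to Gm1966 thus gave unlike differences, -3.45 on its own and -0.67 on the tested one it shares, and no level can be given to Gvin1 itself.

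**Figure D2:**
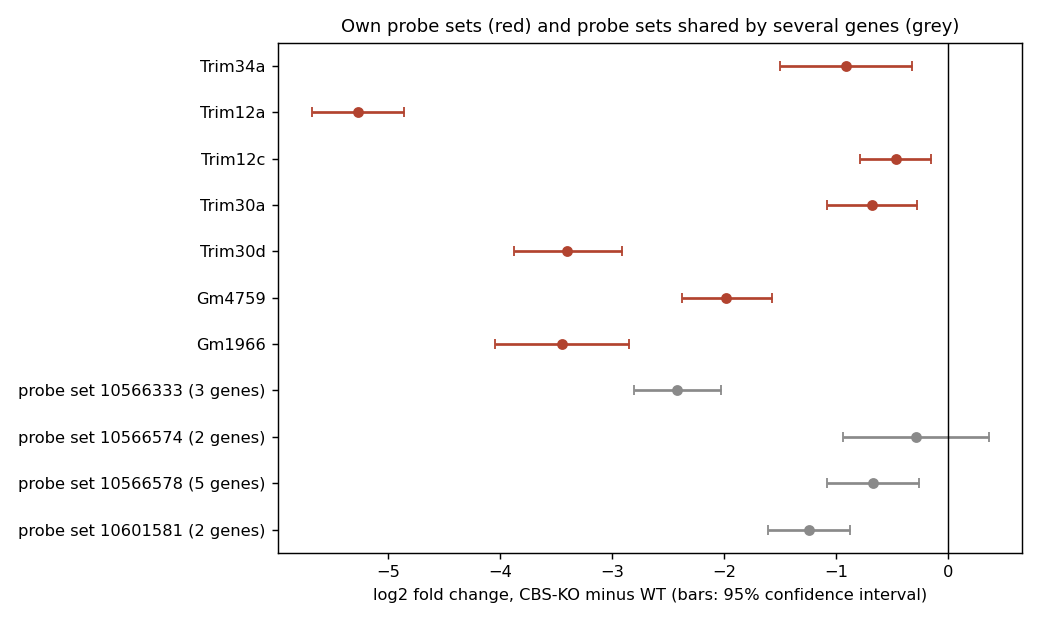
Log2 fold change, CBS-KO minus WT, with its 95% confidence interval for the 7 probe sets that name a single cluster gene (red) and the 4 tested probe sets annotated to several genes (grey). Trim12a, Trim30d, Gm1966 and Gm4759 lie at -1.98 or below, while the other 3 genes lie between -0.91 and -0.47.

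By size, the 7 genes are given in 2 sets, cut between -1.98 and -0.91 after the values were seen. Differences in the first set ran from -5.27 to -1.98. On their own probe sets, both paralog pairs of the Trim block had a gene in each set. The probe set that Trim12c shares with Trim5 gave -1.24, so the place of Trim12c in the second set is not settled. Trim12a, Gm1966, Trim30d and Gm4759 held places 2, 4, 5 and 15 from the most negative log2 difference among the 20856 tested probe sets, of which 7 lay at or below -3 and 14 at or below -2. Place 3 was Xist, which differs with sex as given below. Trim34a, Trim30a and Trim12c held places 461, 1267 and 2695. In the order of genes along the chromosome, members of the first set lay beside members of the second: Trim12a at place 82 between Trim34a at 78 and Trim12c at 86, and Trim30d at 93 after Trim30a at 91.

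Genes in the same stretch other than members showed no called difference, Trim3 between the blocks and Gm8995 inside the Gvin block among them. The stretch, from 1 Mb before to 1 Mb after the outermost cluster genes, held 225 genes in the RefSeq table, of which 130 are named Olfr, the olfactory receptors. Of the 136 genes there with a probe set of their own, other than members, 17 passed the filter on low values. In limma's model 0 of the 17 passed an adjusted p of 0.05 in either direction, a count near the background of 9.57% of all tested probe sets. At an unadjusted p under 0.05 in limma, 1 was lower and 3 higher, beside 6443 of the 20856 tested probe sets in either direction. The median log2 fold change of the 17 was 0.03, with a range of -0.63 to 0.52. Of these 17, the CBS-KO arrays were without exception below the WT arrays for 2 and above them for 3, beside 21.7% and 15% of all tested probe sets.

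Gm8995, at place 187 between Gm4759 at 185 and Gm1966 at 189, had the most negative value among neighbours. Its intensity was 3924, 4962 and 2844 in CBS-KO 1 to 3, against 6212, 6310 and 5285 in WT 1 to 3, a log2 fold change of -0.63 (SE 0.20, limma adjusted p = 0.0885). The most positive value was that of Ppfibp2, which encodes a liprin scaffold protein, at 0.52 (SE 0.15, limma adjusted p = 0.0683). Ilk, the integrin-linked kinase, Tpp1, a lysosomal peptidase, and Taf10, a subunit of the general transcription factor TFIID, lie between the blocks and had log2 fold changes of -0.05 (SE 0.10), 0.26 (SE 0.09) and 0.20 (SE 0.13), none of which passed. Without CBS-KO 2, 1 neighbour passed as lower and 3 as higher.

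**Figure D3:**
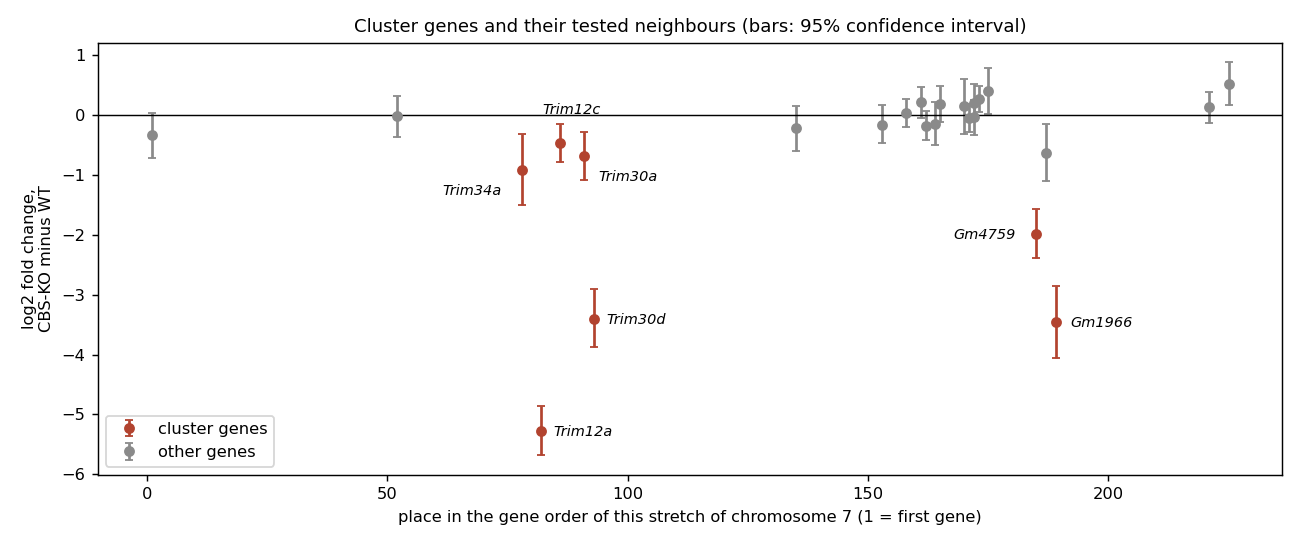
Log2 fold change, CBS-KO minus WT, with its 95% confidence interval, of each tested probe set that names a single gene, by the gene's place in the order of this stretch of chromosome 7. Cluster genes (red) reach -5.27 in the Trim block and -3.45 in the Gvin block, while the other genes (grey) lie between -0.63 and 0.52.

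The CBS-KO arrays differed among themselves in cell type markers and in sex-linked genes, and these values stand beside every result here. Cbs itself had a log2 difference of 0.06 (95% confidence interval -0.27 to 0.39), and since the stretch of the gene under its probe set is unknown here, the genotype labels are not checked by it. Xist, the RNA of the silenced X chromosome, had intensities of 49.1, 56.7 and 4792 in CBS-KO 1 to 3 and of 6241 to 6540 in WT cells. The Y-linked Eif2s3y had 665, 570 and 13.2 in CBS-KO 1 to 3 and at most 13.9 in WT cells. CBS-KO 1 and 2 thus carried male signal and CBS-KO 3 and the WT arrays did not. With CBS-KO 3 alone against the WT arrays, the log2 differences were -5.04 for Trim12a, -3.63 for Trim30d, -3.93 for Gm1966 and -2.18 for Gm4759.

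CD4 T cell markers were at high levels in all arrays but lower in CBS-KO cells, and markers of other blood cells were higher. Of 10 measured CD4 T cell markers, all were lower on average, with a median log2 fold change of -0.59. Of these, 4 were past the threshold, beside 4.47% of all tested probe sets called lower. The mean of the list stood -0.64, -0.35 and -1.04 from WT in CBS-KO 1 to 3. The summed log2 level of these markers was 114.8 to 121.8 in CBS-KO and 124.7 to 125.6 in WT arrays, and Cd4 stood at the 98.6th percentile in CBS-KO cells. Of 11 neutrophil, 10 monocyte and macrophage and 6 erythroid markers, 9, 10 and 6 were called higher, beside 5.09% of all tested probe sets. The median log2 fold changes of these 3 lists were 3.36, 2.38 and 2.99. Their summed levels were 115.9 to 119.5, 100.3 to 106.7 and 63.9 to 71.2 in CBS-KO and 78.2 to 85.1, 77.8 to 85.8 and 47.5 to 51.6 in WT arrays. In limma's model 0 of the 6 B cell markers were called. At an unadjusted p under 0.05 in limma, 0 were lower and 0 higher, beside 6443 of the 20856 tested probe sets in either direction. Summed levels of the B cell markers were 53.7 to 65.1 in CBS-KO and 58.3 to 61.9 in WT arrays. No marker of these lists was at 0, the lowest intensity being 36.7, in WT. In such bulk samples fewer cells of a type and less RNA per cell cannot be told apart.

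The cluster genes were then set against the CD4 marker mean of each array, which shifts all genes of an array alike and leaves the differences between them as they were. Trim30a relative to its WT mean was -0.67, -0.34 and -1.03 in CBS-KO 1 to 3, so that it lay within 0.03 of the CD4 marker mean in every array of both groups. Trim34a lay -0.26, -0.09 and -0.35 from that mean. Trim12c, which lay -0.48, -0.55 and -0.38 from its WT mean, was in another order over the CBS-KO arrays and lay 0.16, -0.20 and 0.66 from the CD4 marker mean.

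The genes with large differences lay far below the CD4 marker mean. Trim12a lay -4.81, -4.97 and -4.00 from the CD4 marker mean in CBS-KO 1 to 3. Trim30d lay -2.91, -2.66 and -2.59 from it, Gm1966 -2.86, -2.57 and -2.89, and Gm4759 -1.29, -1.47 and -1.14. The part of the markers in these results was not tested. For 5 of the 7 genes CBS-KO 2 was the highest and CBS-KO 3 the lowest of the CBS-KO arrays, which is also the order of the CD4 marker mean, and WT 3 was the lowest WT array for all 7.

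**Figure D4:**
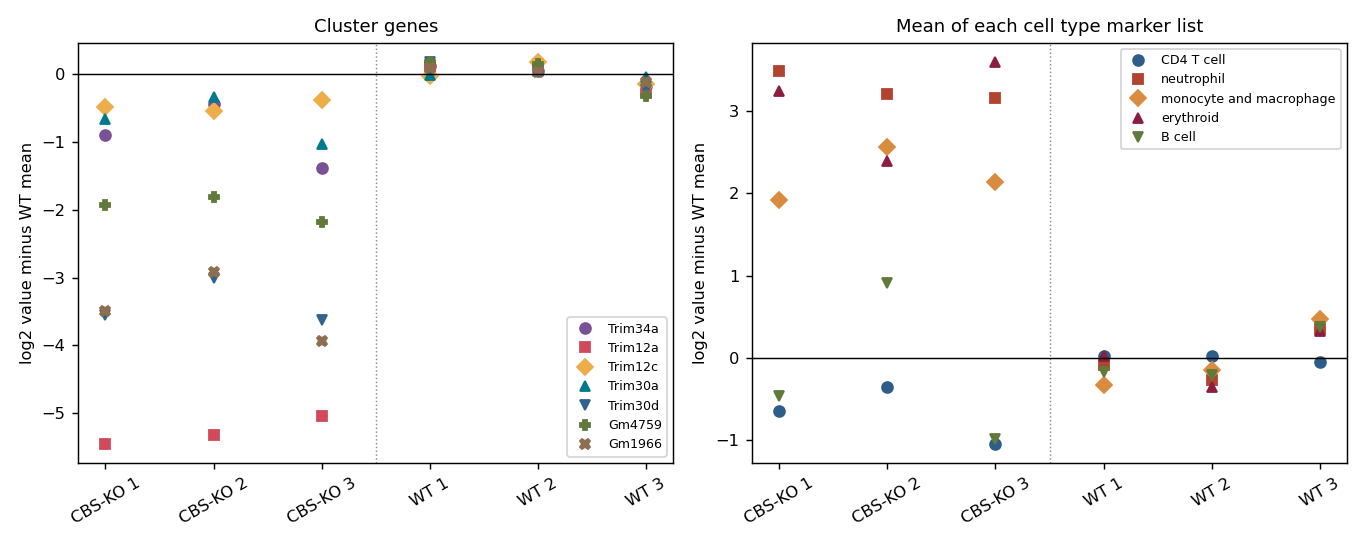
Log2 value minus the WT mean in each array for the 7 cluster genes (left) and for the mean of each cell type marker list (right), CBS-KO arrays left of the dotted line. Trim30a lies within 0.03 of the CD4 T cell marker mean in every array, while Trim12a lies 4 log2 units or more below it in the CBS-KO arrays.

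Members of the interferon pathway outside the cluster were lower in part. Of 27 tested interferon-stimulated effector genes, 13 were lower and 1 was higher, beside 4.47% of all tested probe sets lower and 5.09% higher. Their median log2 fold change was -0.61, beside -0.59 for the CD4 T cell markers given above. The part of the CD4 marker shift in these counts was not tested. Oasl2, an antiviral oligoadenylate synthetase-like gene, was lowest, with intensities of 123, 165 and 122 in CBS-KO 1 to 3, against 651, 905 and 643 in WT 1 to 3 (log2 fold change -2.29, SE 0.19, limma adjusted p = 0.00417). Ifit1 and Ifit3, which bind foreign RNA or assist in it, had log2 fold changes of -1.41 (SE 0.14) and -1.07 (SE 0.12), and Ifi27l2a and Rtp4 of -1.42 (SE 0.19) and -1.28 (SE 0.18). Isg20, an exonuclease, was the gene that rose (1.01, SE 0.14). The most negative value of this list, that of Oasl2, lay between those of Gm4759 and Trim30d. The count of lower genes was 3 without CBS-KO 1, 2 without WT 1, 1 without WT 2 and 7 without WT 3.

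The receptors and transcription factors that carry the interferon signal were called in both directions. Of 16 tested, 2 were lower and 2 higher, beside 4.47% and 5.09% of all tested probe sets, with a median of -0.24 and a range of -0.74 to 1.43. Irf9, the DNA-binding subunit of the complex that reads the response element, had a log2 fold change of -0.68 (SE 0.12, limma adjusted p = 0.0243), with intensities of 1639, 1809 and 1549 in CBS-KO 1 to 3, against 2682, 2981 and 2394 in WT 1 to 3. Usp18, which limits signalling at the receptor, was lower too, at -0.74 (SE 0.14). Ifngr1, a chain of the interferon gamma receptor, was higher by 0.51 (SE 0.09), and Irf8, a factor of myeloid and B cells, by 1.43 (SE 0.29), beside the higher monocyte markers given above. Stat2 (-0.46, SE 0.16) and Irf7 (-0.70, SE 0.19) did not pass. These counts rested on single arrays as well: 0 were lower and 0 higher without CBS-KO 1, WT 1 or WT 2, 1 was lower and 1 higher without WT 3, and 8 were lower without CBS-KO 2.

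Of 35 other Trim genes tested, Trim3 included, 2 were lower and 3 higher, with a median of -0.07. These counts are close to the 4.47% and 5.09% of all tested probe sets and are no result about the family. Trim21, a cytosolic antibody receptor and ubiquitin ligase, had intensities of 1217, 1415 and 953 in CBS-KO 1 to 3, against 1953, 2116 and 2115 in WT 1 to 3 (log2 fold change -0.80, SE 0.16, limma adjusted p = 0.0325). Trim26 was lower as well, at -0.79 (SE 0.18). Trim10, needed for terminal erythroid differentiation, was higher by 2.11 (SE 0.36), and Trim58, a ubiquitin ligase of late erythroblasts, by 1.11 (SE 0.18). Both were highest in CBS-KO 3 and lowest in CBS-KO 2 among the CBS-KO arrays, as was the erythroid marker mean, at 3.25, 2.39 and 3.60 in CBS-KO 1 to 3. Trim16 rose by 0.55 (SE 0.11). Without CBS-KO 1, WT 1, WT 2 or WT 3 in turn, 0 of these genes passed in either direction, without CBS-KO 2, 4 were lower and 8 higher, and without CBS-KO 3, 2 and 2. The most negative other Trim gene was thus within the range of Trim34a and Trim30a and not near Trim12a or Trim30d.

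**Figure D5:**
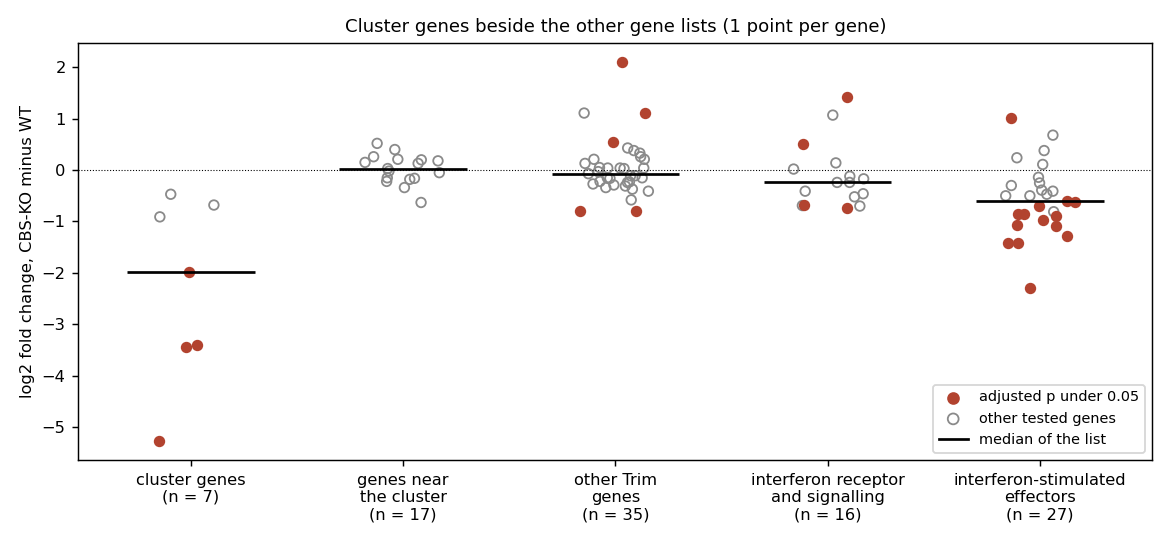
Log2 fold change, CBS-KO minus WT, of each tested gene in the 7 cluster genes and 4 other lists, with filled points for an adjusted p under 0.05 and a line at the median. The cluster median is -1.98, beside 0.03 for genes near the cluster, -0.07 for other Trim genes, -0.24 for interferon receptor and signalling genes and -0.61 for interferon-stimulated effectors. The cluster genes were picked on this contrast, so their median and filled points are a description and no test.

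For likeness of pattern, the log2 values relative to the WT mean were compared over the 6 arrays with 13855 tested probe sets of single genes outside the cluster. Closest to Trim30a were Acvr1b, an activin receptor, Map4k4, a stress kinase, Ms4a6b, Stk39 and Madd, with a mean absolute difference of 0.014 to 0.026 log2 units per array. Acvr1b lay -0.62, -0.34 and -1.05 from its WT mean in CBS-KO 1 to 3, and -0.01, 0.05 and -0.04 in WT 1 to 3. Closest to Gm1966 were BC147527 (0.304), Lypd6b (0.658), Oasl2 (0.677), Ifi214 (0.698) and Als2cl (0.785). BC147527 was -3.20, -3.22 and -3.17 in CBS-KO 1 to 3, without the spread of Gm1966, and -0.14, 0.10 and 0.04 in WT 1 to 3.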

How the data were processed

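The authors deposited 1 intensity per probe set and array for 34760 probe sets, on a linear scale as read from the values. How background was corrected, arrays normalized and probes combined was not stated in the labels, and array medians were 7.37 to 7.55 as log2(intensity + 16). Per the labels' protocols, biotinylated cRNA was made from 6 ug of total RNA by the standard Affymetrix method. Gene names came from the platform annotation, in which 21640 probe sets name 1 gene, and a gene with several is represented by its brightest tested probe set.

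Probe sets whose mean log2(intensity + 16) lay above the 40th percentile (6.99) were tested, 20856 in all, with limma 3.58.1 in R 4.3.3 (lmFit and eBayes with a trend, two-sided), with Benjamini-Hochberg adjustment over all of them and a threshold of 0.05. The script was tested on simulated data. Promoters and gene order came from RefSeq tables of GRCm38.p6; the order was used for neighbours only. Promoter identity came from global alignment with free ends in Biopython 1.88, and figures from matplotlib 3.10.9 in Python 3.11.15.

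Members and lists were chosen with earlier results of these data known. Every member is named, and from other lists up to 6 called genes of smallest p and the extremes. Tpp1, Ilk, Taf10, Trim3, Stat2 and Irf7 were named after their values were seen. The alternatives tried comprised a common array median, quantile normalization, other filters, offsets of 1 and 64, no trend, the replicate number as a block, single-gene probe sets only, each array left out, and CBS-KO 3 alone.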

Additional observations from a re-analysis of the deposited data

How the results depend on the processing

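The cluster genes were picked on this contrast, so their calls under other settings describe the settings and support nothing. With CBS-KO 3 alone, the spread is that of the WT arrays only and the lone array is assumed to vary like them, so only sizes are given. Under all 16 alternatives, or the 15 that tested Trim30d, the 7 genes had lower values in CBS-KO. With CBS-KO 3 alone left aside, Trim12a, Gm1966 and Gm4759 lay past the adjusted p of 0.05 in limma in each, as did Trim30d in each that tested it. The filter at the 60th percentile left Trim30d out. Over all alternatives, CBS-KO 3 alone included, the log2 differences of Trim12a, Gm1966, Gm4759 and Trim30d ranged over -5.55 to -4.64, -3.93 to -3.15, -2.18 to -1.88 and -3.69 to -2.77. The other 3 lay near the threshold. Trim30a passed with a common array median (-0.65), the filter at the 60th percentile (-0.68), the replicate block (-0.68) and single-gene probe sets only (-0.68). Its difference with CBS-KO 3 alone was -1.03. Trim34a passed with the block (-0.91) and single-gene probe sets (-0.91), and Trim12c with single-gene probe sets (-0.47). With CBS-KO 3 alone the difference of Trim34a was -1.39. With 1 array left out, the ranges were -0.85 to -0.50 for Trim30a, -1.14 to -0.67 for Trim34a and -0.54 to -0.38 for Trim12c, and Trim30a and Trim34a passed without CBS-KO 2. Single-gene probe sets meant 13862 tests and the filter at the 60th percentile 13904, and the cause of these moves was not tested.

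In the limma counts, single-gene probe sets gave 7 cluster genes lower, 1 neighbour higher and 4 other Trim genes lower. No filter gave 1 neighbour lower, 0 other Trim genes lower, 1 signalling gene higher, and 524 lower and 602 higher among all probe sets. The filter at the 60th percentile gave 0 other Trim genes higher. The replicate block gave 1 neighbour lower, 1 other Trim gene lower, 0 signalling genes higher and 6 cluster genes lower. The labels give same-numbered arrays no more in common than a number. The correlations of their deviations from the group means over probe sets were 0.063, 0.158 and 0.108, and each correlated best with its own number. Pairs with unlike numbers ran from -0.122 to 0.048, and whether same-numbered arrays were handled together is not known. CBS-KO 3 alone, with WT spread only, gave 1 neighbour lower and 3 higher, 5 other Trim genes lower and 6 higher, 8 signalling genes lower and 0 higher, 2 effectors higher, and 3232 lower and 3476 higher among all probe sets.

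With 1 array left out, counts lower and higher in CBS-KO ran from 4 to 6 and 0 to 0 for cluster genes, 0 to 1 and 0 to 3 for neighbours, 0 to 4 and 0 to 8 for other Trim genes, 0 to 8 and 0 to 3 for signalling genes, 1 to 16 and 0 to 2 for effectors, and 19 to 3031 and 54 to 3396 for all probe sets. The lowest count of all probe sets was without WT 2 and the highest without CBS-KO 2.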
